A study of Arabidopsis thaliana with 30 samples.

Results

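The association of mRNAs with polysomes was compared between Arabidopsis thaliana seedlings held under hypoxia for 9 h and seedlings held in air for the same time. The comparison uses 12 of the 30 arrays of the series, chosen by their labels: polysomal RNA under 9 h hypoxia, polysomal RNA in 9 h air, total RNA under 9 h hypoxia and total RNA in 9 h air, with 3 arrays each. All seedlings, those kept in air included, were 7 days old, of the Col-0 background and carried the transgene 35S:His6FLAG-RPL18B, a line with a single copy of the insert. The transgene encodes a tagged protein of the large ribosomal subunit, driven by a viral promoter whose activity is not the same in every cell type, and ribosomes with their mRNAs were pulled down through the tag (IP in the labels). Treatments started when the day's light ended and ran in dim light, and whole seedlings were harvested. The labels call the replicates independent experiments. The association change of a gene is its polysomal minus total log2 signal under hypoxia, minus the same difference in air, after the mean of all non-control probe sets had been subtracted from each array. A positive value means that polysomal RNA gained on total RNA under hypoxia, relative to the average probe set.

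An mRNA is translated while ribosomes move along it, and mRNAs that carry ribosomes can be recovered together with them. Protein synthesis costs much ATP, and plant cells short of oxygen make ATP mainly by glycolysis, with pyruvate passed on to fermentation. Hypoxic plants are known to hold many mRNAs out of polysomes while those for anaerobic metabolism stay engaged. The method used here recovers an mRNA that carries any tagged ribosome and does not count the ribosomes on it. In whole seedlings, fewer cells of a type and less RNA per cell cannot be told apart.

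Of 13356 genes named from single-gene probe sets, 1178 gained association (8.82% of those tested) and 1699 lost it (12.7%) at a limma adjusted p under 0.05. The changes reached 2-fold in 320 of the genes that rose and 542 of those that fell. Over all 22746 probe sets, named or not, 2616 rose (11.5%) and 2883 fell (12.7%). With replicate 2 or replicate 3 of every group left out, 1676 and 1606 probe sets rose. The median over named genes was 0.00, with a median standard error (SE) of 0.18. Without centring, 168 probe sets rose and 19798 fell, because the polysomal arrays of hypoxic seedlings were dimmer as deposited: their mean signal was 4.34, against 5.36 for polysomal RNA in air, 5.76 for total RNA under hypoxia and 5.77 for total RNA in air. The association change of the array means was thus -1.002. The spiked hybridisation controls, which by the design of the array are added in fixed amounts, gave -0.97 on the same contrast. All changes below are therefore relative to the average probe set, and say nothing of how much mRNA was on polysomes in all.

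Genes for proteins of the cytosolic ribosome were the group that lost association most broadly. A listed gene is called measured where a single-gene probe set was named for it, so the lists are partial. That held for 69 of 114 listed large-subunit genes and 45 of 90 listed small-subunit genes. Of the 114 measured in all, 85 fell and none rose, and 110 had a value below 0. The median was -0.89, against 0.00 over all named genes. Both subunits gave similar counts: 53 of 69 large-subunit genes fell with a median of -0.90, and 32 of 45 small-subunit genes fell with a median of -0.83. In polysomal RNA 108 of the 114 fell (23.3% of all named genes did), with a median of -1.46. In total RNA 75 fell and 2 rose (20.7% of all named genes fell and 21.7% rose), and the median was -0.44. The median polysomal minus total difference was -0.54 under hypoxia and 0.33 in air. By level these genes remained among the brighter ones, with a median percentile of 93.4 on the polysomal arrays under hypoxia and 98.0 in air. Many of these genes have near-identical copies whose transcripts the probes may not separate. When the hybridisation controls were used for scaling, 38 of the 114 fell and none rose, with a median of -0.92. Of all 22746 probe sets, 611 fell and 381 rose in that fit. Under cyclic loess 1 of the 114 rose, beside 3052 of all probe sets.

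AT3G55170, which encodes a member of the L35 family of the large subunit, had the largest fall among them. Its polysomal level was -1.47, -1.14 and -0.63 under hypoxia, against 1.36, 1.40 and 1.43 in air, in mean-centred log2 units. Its total level was 0.57, 0.85 and 0.92 under hypoxia, against 0.52, 0.69 and 0.78 in air. All 3 polysomal values from hypoxic seedlings lay below all values from air, while the total values of both conditions overlapped. The association change was -2.59 (SE 0.34, limma adjusted p 4.19e-06). AT5G27700, an S21 gene of the small subunit, is one of the brighter probe sets on every array. Its polysomal level was 4.73, 4.75 and 5.03 under hypoxia, against 6.83, 6.91 and 6.73 in air. Its total level was 6.36, 6.37 and 6.30 under hypoxia, against 6.57, 6.62 and 6.52 in air. The polysomal groups were apart by about 2 log2 units, and its association change was -1.76 (SE 0.16, adjusted p 5.47e-08). AT2G21580, an S25 gene, had polysomal minus total differences of -1.10, -0.79 and -0.85 under hypoxia, against 0.94, 1.13 and 0.72 in air. Its association change was -1.85 (SE 0.24), with a total change of 0.03.

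The other ribosomal protein genes named by rule followed the same form. For the large subunit, AT3G28900 (L34) fell by 1.91, AT5G47700 (the acidic stalk protein P1) fell by 1.90 and AT5G23900 (L13) fell by 1.83 on the log2 scale. For the small subunit, AT3G56340 (S26) fell by 1.504 and AT1G15930 (S12) fell by 1.42. In each of these 5 genes the total change lay between -0.32 and -0.07 and did not pass the test, and the 3 hypoxia differences lay below the 3 air differences. Over all named genes, the differences of both conditions were apart in this way, in either direction, in 35.2%.

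**Figure D1:**
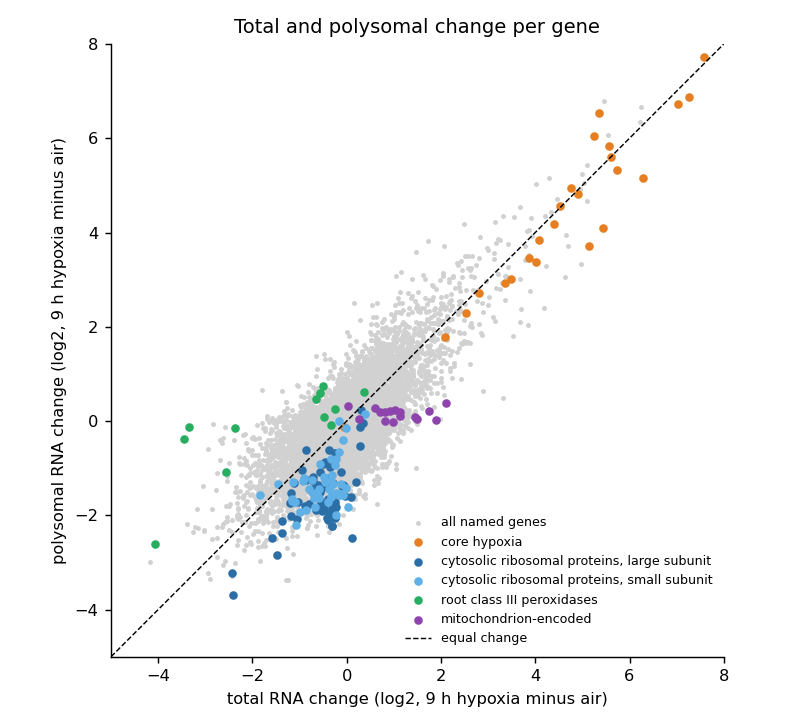
Change in total RNA (x axis) and in polysomal RNA (y axis) between 9 h hypoxia and 9 h air, in mean-centred log2 units, for every named gene (grey) and for 5 gene lists (coloured); the dashed line marks equal change, where the association change is 0. Most ribosomal protein genes lie below the line with polysomal changes near -1.5, mitochondrion-encoded genes lie to its right near a polysomal change of 0, several root peroxidases lie to its left, and core hypoxia genes lie along it.

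Some genes lost polysomal RNA while their total RNA stayed level. Total RNA was called stable where its change did not pass the test and was under 0.5 in size, which held for 7644 genes. Of these, 650 lost association (8.5%) and 303 gained it (3.96%), and 210 falls and 44 rises reached 2-fold. With replicate 2 or replicate 3 left out, 193 and 195 of the genes then called stable rose. Among the 37 ribosomal protein genes with stable total RNA, 31 fell, 26 of them at least 2-fold. Stability was judged on total arrays that also enter the association change, so among these genes a polysomal change in the same direction was largely fixed.

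The 8 largest falls with stable total RNA held the ribosomal protein genes AT3G55170 and AT3G28900 and 6 others. Their choice by total RNA largely fixed a fall in polysomal RNA. ATU2AF35A encodes the small subunit of U2AF, which recognises the 3′ splice site. Its polysomal level was -0.55, 0.01 and -0.38 under hypoxia, against 1.73, 1.97 and 1.91 in air. Its total level was 1.46, 1.47 and 1.31 under hypoxia, against 1.79, 1.54 and 1.40 in air. The polysomal groups were far apart while the total ranges overlapped, and the association change was -2.02 (SE 0.32, adjusted p 4.31e-05). AT2G44860 encodes a protein of the L24e family related to a ribosome assembly factor known from yeast. Its polysomal minus total difference was -1.29, -1.07 and -1.13 under hypoxia, against 1.15, 0.60 and 0.69 in air, and its association change was -1.98 (SE 0.24). AT1G22270, a Trm112-like partner of methyltransferases, fell by 1.95, and AT2G36930, a C2H2 zinc finger protein, fell by 1.92. AT5G37290 and AT5G57370, whose roles are not described here, fell by 1.99 and 1.93.

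The 8 largest rises with stable total RNA each came with a polysomal rise of at least 2-fold, a direction that their choice by total RNA largely fixed. AT1G02360, of the chitinase family, had polysomal levels of 1.60, 1.59 and 1.38 under hypoxia, against -0.98, -0.69 and -1.26 in air. The total levels of this gene were 1.15, 0.96 and 0.97 under hypoxia, against 0.71, 0.91 and 1.00 in air. Only the polysomal groups were apart, and the association change was 2.35 (SE 0.25, adjusted p 4.58e-07). GSTU25, a glutathione transferase, had polysomal levels of 1.25, 1.67 and 1.92 under hypoxia, against 0.20, -0.31 and -0.49 in air. In total RNA GSTU25 had -0.16, 0.09 and 0.04 under hypoxia, against 0.30, -0.06 and -0.40 in air, and its association change was 1.77 (SE 0.29). ATMDAR2, a monodehydroascorbate reductase that recycles ascorbate, rose by 1.52. The beta-glucosidases BGLU19 and BGLU25 rose by 1.88 and 1.51, of which BGLU19 did not pass without replicate 1 (1.65, adjusted p 0.108) or without replicate 2. AT5G62150, a LysM-domain protein, rose by 1.86, AT3G19390, a cysteine protease with a granulin repeat, rose by 1.67, and AT3G07600, of the heavy-metal-associated domain family, rose by 1.54.

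The 12 largest rises of all were chosen without regard to total RNA. They held the class III peroxidase genes AT4G26010, AT1G30870, AT1G34510, AT3G01190 and AT3G49960, the root-hair expansin EXPA18, the pectin methylesterase gene AT5G04960 and the pectin methylesterase inhibitor gene AT5G62340. Class III peroxidases are secreted enzymes that use hydrogen peroxide to cross-link or loosen the cell wall. In 10 of the 12 the total RNA fell and the polysomal change lay between -0.58 and -0.06, so the rise in association came with a loss of total signal. AT4G26010 had a polysomal level of -1.25, -1.76 and -1.22 under hypoxia, against -1.27, -1.54 and -1.01 in air. Its total level was -1.17, -1.39 and -0.62 under hypoxia, against 2.19, 2.30 and 2.39 in air. The polysomal values of both conditions overlapped, while the total values were apart. Its mean signal stood at the 34.9 percentile of the polysomal arrays under hypoxia and the 38.3 percentile in air, and at the 42.3 and 84.0 percentiles of the total arrays. The association change was 3.22 (SE 0.24, adjusted p 3.02e-09). AT1G30870 rose by 3.08 (SE 0.29) and AT5G04960 by 2.79 (SE 0.19) in the same form, with polysomal means between the 24.5 and 39.5 percentiles in both conditions. At levels that low a fall in polysomal RNA is hard to measure, and the sizes of these rises carry that limit.

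The 2 exceptions among the 12 were AT1G02360, given above, and AT5G26260, a TRAF-like gene. Polysomal RNA of AT5G26260 was 1.86, 2.20 and 2.05 under hypoxia, against 1.20, 1.43 and 1.52 in air, and its total RNA was 1.21, 1.36 and 1.35 under hypoxia, against 3.00, 3.11 and 3.21 in air. Both pools were apart between conditions and moved in opposite directions, and the association change was 2.46 (SE 0.24). Of the others, AT3G45710, of a nitrate and peptide transporter family, rose by 2.28, and UGT71C1, a UDP-glycosyltransferase, rose by 2.25.

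Most listed root class III peroxidases gained association. Of 12 measured, 7 rose and none fell (8.82% of all named genes rose and 12.7% fell), with a median association change of 1.21. In total RNA 8 fell and 1 rose (20.7% and 21.7% of all named genes), with a median of -0.61, and in polysomal RNA 2 fell and 2 rose (23.3% and 21%), with a median of 0.01. The median polysomal minus total difference was -0.01 under hypoxia and -1.59 in air. The median percentile of the listed peroxidases on the polysomal arrays was 47.1 under hypoxia and 62.4 in air, and the dimmer members carry the limit given above. AT5G17820 rose by 1.47 but did not pass without replicate 2 (1.34, adjusted p 0.0826). Root markers as a whole moved with this result. Of 10 listed root markers 7 were measured, of which AT5G17820 and AT4G26010 are also on the peroxidase list and EXPA7 and EXPA18 on the list of expansins, and 6 of the 7 rose. Their mean level in polysomal RNA ran from 1.63 to 1.82 under hypoxia, against 1.84 to 2.08 in air. In total RNA it ran from 1.57 to 1.78 under hypoxia, against 3.30 to 3.40 in air. The total ranges were far apart while the polysomal ranges lay just apart, and the part of root RNA in the rises was not tested. Neither of the 2 shoot markers measured passed limma's test, or had an unadjusted p under 0.05: their mean polysomal level ran from 6.75 to 6.82 under hypoxia, against 6.70 to 6.90 in air.

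The listed cell wall genes outside the peroxidases shared the direction. Of 18 listed genes for expansins and xyloglucan enzymes 7 were measured. Of these 3 rose and none fell (8.82% and 12.7% of all named genes), and the median was 0.89. Over all 10 genes with EXPA symbols, listed or not, 2 rose and none fell, with a median of 0.44. Of the 10, 3 lay below 0, down to -0.86. With each total array paired as a block with the polysomal array of its condition and number, 5 of the 7 rose. Of all 22746 probe sets, 3350 rose in that fit. Of the 3 listed genes that rose, EXPA7 and EXPA18 are also root markers. EXPA7, a root-hair expansin, rose by 1.51 (SE 0.18) with a polysomal change of 0.08 and a total change of -1.44. EXPA18 rose by 2.18 (SE 0.20), with a polysomal change of -0.47 and a total change of -2.65. XTH19 rose by 1.66 (SE 0.49), but with a polysomal change of 2.21, and its call was lost without replicate 1 (1.76, adjusted p 0.0974) or replicate 3.

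**Figure D2:**
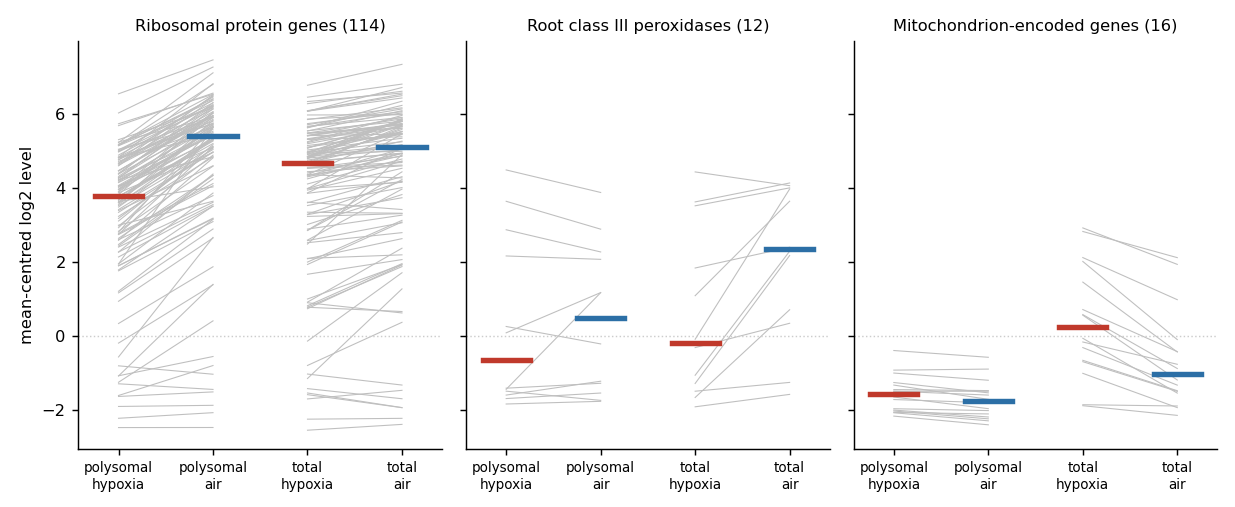
Mean-centred log2 level (y axis) of ribosomal protein genes, root class III peroxidases and mitochondrion-encoded genes in polysomal RNA under hypoxia and in air and in total RNA under hypoxia and in air; each grey line joins the means (n = 3 arrays) of 1 gene and the bars mark list medians, hypoxia in red and air in blue. The ribosomal bars differ most in polysomal RNA, the other 2 lists in total RNA.

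Glycolytic genes gained association. Of 32 listed 13 were measured, of which 7 rose and none fell (8.82% and 12.7% of all named genes), with a median of 0.62. The median polysomal minus total difference was 0.25 under hypoxia and -0.47 in air, and 8 of the 13 stood below the average probe set on this scale in air by the test (14% of all named genes did). In polysomal RNA 9 rose and 2 fell (21% of all named genes rose), and in total RNA 6 rose and 3 fell (21.7% and 20.7%). The 2 largest rises were of subunits of the pyrophosphate-dependent phosphofructokinase, which uses pyrophosphate in place of ATP to phosphorylate fructose 6-phosphate. AT1G76550 had differences of 0.48, 0.44 and 0.51 under hypoxia, against -0.99, -0.86 and -0.92 in air, and rose by 1.40 (SE 0.19, adjusted p 5.16e-06). AT1G12000 rose by 1.40 as well, with total levels of 1.79, 1.71 and 1.88 under hypoxia, against 2.78, 3.01 and 3.07 in air. Its polysomal levels were 1.81, 2.13 and 2.33 under hypoxia, against 1.62, 1.89 and 2.04 in air. The total ranges were apart and the polysomal ranges overlapped.

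AT5G42740, the cytosolic glucose-6-phosphate isomerase, had polysomal levels of 3.34, 3.22 and 3.26 under hypoxia, against 1.81, 1.65 and 1.87 in air. Its total levels were 3.00, 2.91 and 2.89 under hypoxia, against 2.68, 2.68 and 2.47 in air. Both pools were higher under hypoxia without overlap, the polysomal one by more, and the association change was 1.17 (SE 0.14, adjusted p 1.05e-06, and 0.058 with the hybridisation controls). AT5G56350, a pyruvate kinase, rose by 1.26 (SE 0.21) while its total change of -0.31 did not pass. With the hybridisation controls for scaling 3 of the 13 rose, beside 381 of all 22746 probe sets. With arrays as deposited the median of the 13 was -0.39.

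Of the 10 genes of fermentation and sucrose breakdown listed, only PDC2 and a lactate dehydrogenase gene were measured, and both rose. PDC2, a pyruvate decarboxylase that starts ethanolic fermentation, had polysomal levels of 6.47, 6.29 and 6.44 under hypoxia, against -0.27, -0.07 and -0.04 in air. Its total levels were 5.86, 5.78 and 5.89 under hypoxia, against 0.43, 0.41 and 0.63 in air. Both pools were far higher under hypoxia, and its polysomal minus total difference changed sign, at 0.56 under hypoxia and -0.62 in air. The association change was 1.18 (SE 0.17, adjusted p 1.5e-05). With the hybridisation controls for scaling PDC2 did not pass (1.15, adjusted p 0.0625). The lactate dehydrogenase gene AT4G17260 rose by 0.76 (SE 0.27, adjusted p 0.0391), which was lost in 10 of 15 fits that left out an array or a replicate, with an adjusted p of up to 0.232, and which did not pass with array medians, quantile normalization or the hybridisation controls.

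The core hypoxia genes, a set induced by low oxygen in many plant cell types, rose by similar amounts in both pools. Of 47 listed 24 were measured. Of these, 23 rose in polysomal RNA and 23 in total RNA (21% and 21.7% of all named genes), with medians of 4.36 and 4.83. Their association change had a median of -0.24, and 1 rose and 3 fell, which are 4.17% and 12.5% of the list beside 8.82% and 12.7% of all named genes. The 1 that rose was PDC2. With the block that pairs total with polysomal arrays, 2 rose and 5 fell, beside 3350 and 3420 of all 22746 probe sets. AT3G03270, a universal stress protein gene, had polysomal levels of 6.31, 6.66 and 6.58 under hypoxia, against 2.76, 3.10 and 2.56 in air. Its total levels were 6.44, 6.74 and 6.53 under hypoxia, against 1.26, 1.68 and 1.35 in air. Both pools were apart between conditions, the total by more, and the association change was -1.43 (SE 0.20). AT1G33055 fell by 1.34 (SE 0.24) and AT1G19530 by 1.12 (SE 0.33), the second of which did not pass without replicate 1, replicate 3 (-0.94, adjusted p 0.158), polysomal replicate 2 of air or total replicate 3 of air. The association changes of the other 20 genes ran from -0.64 to 0.82.

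Of 25 heat shock genes listed 9 were measured. Of the 9, 8 rose in polysomal RNA and 8 in total RNA (21% and 21.7% of all named genes). The other, Cpn60beta2, which encodes a chaperonin subunit, fell in both pools, by 1.21 in polysomal and by 1.02 in total RNA. None of the 9 passed limma's test of association, where 1 was higher and 0 lower at an unadjusted p under 0.05. Their median total change was 4.02, their median polysomal change was 4.31 and their association changes ran from -0.99 to 1.33 around a median of 0.39. With the block of condition and number, 3 of the 9 rose and 2 fell, beside 3350 and 3420 of all 22746 probe sets. Of 20 stress transcription factors listed 3 were measured. WRKY53 rose by 1.49 (SE 0.39) and WRKY6 by 1.41 (SE 0.26), and STZ had 0.79 (SE 0.38, adjusted p 0.142, and 0.00679 with the block). WRKY53 was lost without replicate 1 (1.34, adjusted p 0.0625). Polysomal RNA of WRKY6 was 2.78, 2.76 and 2.41 under hypoxia, against 0.00, -0.01 and -0.16 in air, and its total RNA was 1.90, 1.55 and 1.68 under hypoxia, against 0.60, 0.48 and 0.16 in air. Both pools were higher under hypoxia without overlap.

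**Figure D3:**
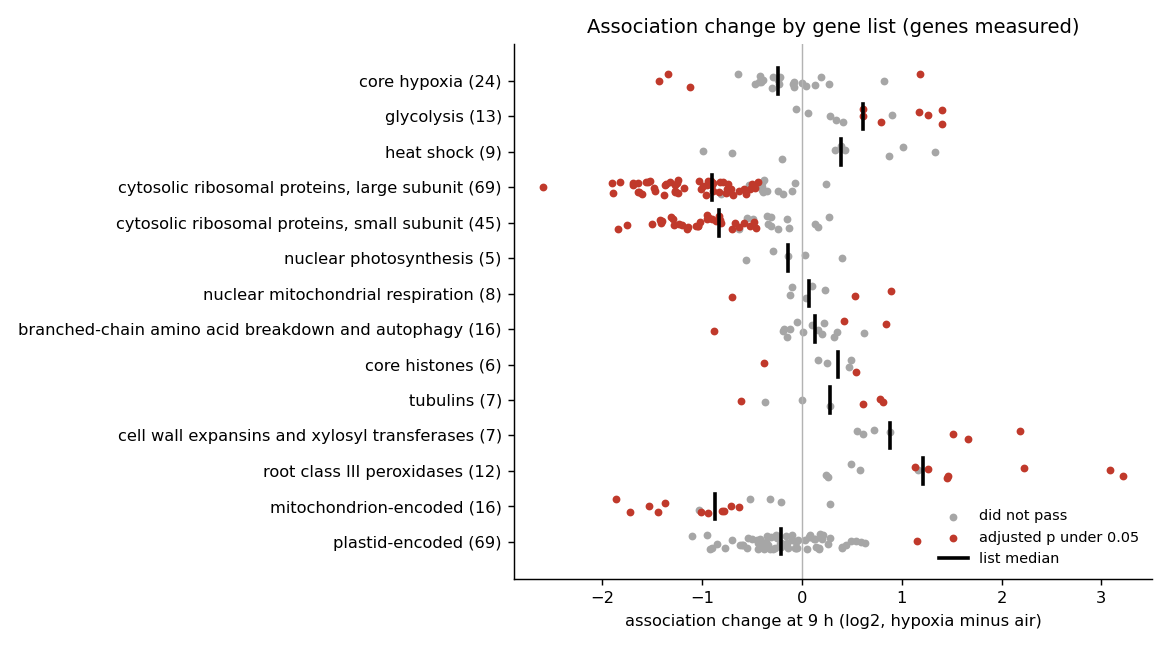
Association change at 9 h (x axis, log2, hypoxia minus air) of each measured member of 14 gene lists; each point is 1 gene, red where its limma adjusted p was under 0.05 and grey otherwise, and black bars mark list medians. The 2 ribosomal lists lie left of 0 with medians of -0.90 and -0.83, the peroxidases lie right of it with a median of 1.21, and the core hypoxia median is -0.24.

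Mitochondrion-encoded genes fell in association while their total RNA rose. These mRNAs are translated inside the organelle on ribosomes that do not hold the tagged protein. Of 16 measured, 11 fell and none rose (12.7% and 8.82% of all named genes), with a median of -0.87. Without replicate 1, 7 of the 16 fell, beside 1997 of all 22746 probe sets. With the hybridisation controls 5 of the 16 fell, beside 611 of all probe sets. In total RNA 14 rose (21.7% of all named genes), with a median of 1.00, while in polysomal RNA none passed in either direction (21% of all named genes rose there), with a median of 0.19 and 0 of the 16 at an unadjusted p under 0.05 in limma. Their median percentile on the polysomal arrays was 31.0 under hypoxia and 28.8 in air, near the dim end where a change in polysomal RNA is hard to measure, and the sizes of the association changes carry that limit. The filter on the dimmest 40 percent of probe sets left 8 of the 16, of which 5 fell, beside 2823 falls among all probe sets kept. The gene cox1, for a catalytic subunit of cytochrome c oxidase, had polysomal levels of -1.41, -1.42 and -1.14 under hypoxia, against -1.67, -1.75 and -1.71 in air. Its total levels were 1.83, 2.46 and 1.76 under hypoxia, against -0.21, 0.18 and -0.26 in air. Both pools were apart between conditions, the total by about 2 log2 units and the polysomal by far less, and the association change was -1.73 (SE 0.26, adjusted p 2.78e-05). The other named members were ccb452, for a factor of cytochrome c assembly, which fell by 1.86 (SE 0.37), nad5, for a subunit of complex I, which fell by 1.54 (SE 0.21), and cox2, for the other copper-bearing subunit of cytochrome c oxidase, which fell by 1.44 (SE 0.23).

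Plastid-encoded genes, which are also translated on ribosomes of their own organelle, were far lower in polysomal than in total RNA in both conditions. Their median percentile was 58.1 on the polysomal arrays under hypoxia and 49.2 in air, and 97.6 and 97.4 on the total arrays. All 69 measured stood below the average probe set in polysomal minus total RNA, with a median of -5.04 under hypoxia and -5.10 in air. Of all named genes 15.2% stood below it by the test under hypoxia and 14% in air. The association change had a median of -0.21, and 1 of 69 passed. This median was 0.18 without replicate 3, -0.54 without replicate 2 and -0.43 without polysomal replicate 2 of air, so its side of 0 is not settled. That gene was rbcL, the large subunit of Rubisco, with polysomal levels of 0.32, -0.12 and 0.44 under hypoxia, against -0.93, -1.34 and -0.71 in air. Its total levels were 4.12, 4.76 and 4.91 under hypoxia, against 4.04, 5.01 and 4.58 in air. The polysomal groups were apart and the total groups overlapped. Its association change was 1.15 (SE 0.37, adjusted p 0.0227), which was lost without any 1 of the replicates, with 0.99 and an adjusted p of 0.129 without replicate 2.

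The largest fall of all was AT2G07777, with -2.82 (SE 0.40). It is a chromosome 2 locus that lies in a stretch copied from the mitochondrial genome, so its probes may read mitochondrial transcripts, and its polysomal change of 0.49 and total change of 3.32 are given with that limit. AT1G33050, with -2.25 (SE 0.36), is the neighbour of the core hypoxia gene AT1G33055 in the gene table, and had a total change of 2.89 and a polysomal change of 0.63. AT3G51500 had polysomal levels of 0.72, 0.90 and 1.02 under hypoxia, against 1.88, 1.99 and 1.78 in air, and total levels of 1.57, 1.90 and 1.52 under hypoxia, against -0.09, 0.35 and 0.29 in air. Its 2 pools moved in opposite directions without overlap, for an association change of -2.48 (SE 0.19). AT3G53250, of the small auxin-up RNA family, had -2.14 (SE 0.50), and its call was lost without replicate 1 (-1.52, adjusted p 0.147). AT1G76405, for a pore protein of the chloroplast outer envelope, had -2.08 (SE 0.27). The others were AT3G05810 with -2.40, AT5G57760 with -2.09, AT4G08460 with -2.02 and AT3G57320 with -1.99, beside AT3G55170, ATU2AF35A and AT5G37290 given above.

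**Figure D4:**
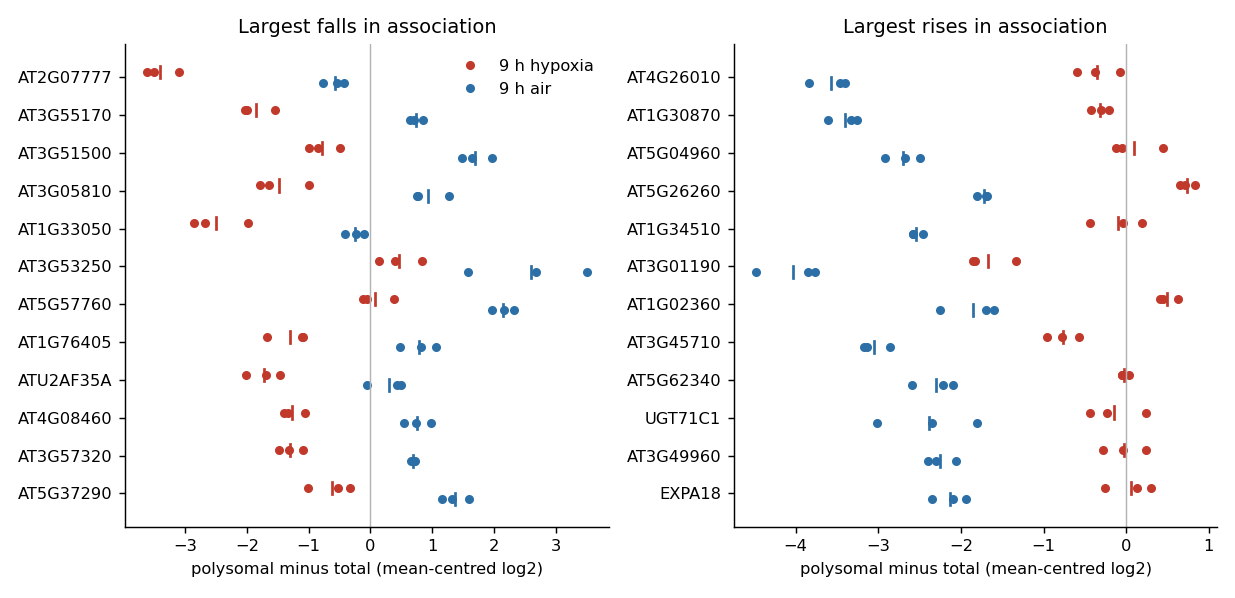
Polysomal minus total RNA (x axis, mean-centred log2) in each replicate of 9 h hypoxia (red) and 9 h air (blue) for the 12 genes with the largest falls (left) and the 12 with the largest rises (right) in association; points are replicates paired by number and ticks are means (n = 3). In every gene shown the hypoxia points do not overlap the air points, which the choice of these genes required.

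Smaller lists had few calls, to be read beside the 8.82% of all named genes that rose and the 12.7% that fell. Of 8 nuclear genes of mitochondrial respiration 2 rose and 1 fell: the succinate dehydrogenase genes SDH1-1 (0.89, SE 0.17) and SDH2-1 (0.53, SE 0.14) rose, and AT3G15640, a cytochrome c oxidase subunit gene, fell by 0.70. SDH2-1 was lost without replicate 3 (0.40, adjusted p 0.146), and AT3G15640 without replicate 1 (-0.62, adjusted p 0.103), replicate 3 or total replicate 3 of air. Of 16 genes of branched-chain amino acid breakdown and autophagy 2 rose and 1 fell. ATG3, an enzyme of ATG8 lipidation, rose by 0.85 (SE 0.19), ATG8C fell by 0.88 (SE 0.17), and ETFBETA, an electron carrier subunit, rose by 0.42 (SE 0.15), which 13 of 15 fits with fewer arrays did not call, with an adjusted p of up to 0.174. ATG3 was lost without replicate 2 (0.72, adjusted p 0.0617).

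Of 7 tubulin genes 3 rose and 1 fell (8.82% and 12.7% of all named genes). TUA6 rose by 0.81 (SE 0.15), TUB1 by 0.78 (SE 0.21) and TUB7 by 0.61 (SE 0.17), and TUB5 fell by 0.61 (SE 0.19). TUA6 passed in all fits that left out an array or a replicate but not with the hybridisation controls (0.78, adjusted p 0.259), while the other 3 were lost without 1 or more replicates: TUB1 had 0.48 (adjusted p 0.146) and TUB7 0.58 (0.105) without replicate 2, and TUB5 -0.59 (0.0808) without replicate 3. Of 6 core histone genes HTB1 rose by 0.54 and HTB11 fell by 0.38, and each was lost without replicate 2, at 0.53 (adjusted p 0.0709) and -0.32 (0.209). Of 4 translation factor genes, EIF4A-2 rose by 0.69 (SE 0.17) and AT1G72730, of the same helicase family, by 0.70 (SE 0.22). Both were lost without replicate 2, and the adjusted p was up to 0.0619 and 0.151 in such fits. The other 2, AT5G12110 (an elongation factor 1B subunit) and AT2G40290 (an initiation factor 2 alpha subunit), had -0.36 and -0.50 with adjusted p of 0.272 and 0.0925, and 0.0307 and 0.0328 with the block of condition and number.

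Of the 4 measured genes of endoplasmic reticulum folding and the response to unfolded proteins, AT5G07340, a calnexin gene, rose by 0.78 (SE 0.23). This call was lost without replicate 2 (0.63, adjusted p 0.0861). CRT1b, BZIP28 and BZIP60 had 0.40, 0.38 and 0.52 and did not pass, and BZIP60 had an adjusted p of 0.0338 with the block. None of 5 nuclear photosynthesis genes passed: LHCB4.1, LHCB4.2, LHCB4.3, PSAE-1 and RCA had -0.30, -0.56, 0.40, 0.03 and -0.14, and limma's unadjusted p was under 0.05 for 1 higher and 1 lower. LHCB4.2 and LHCB4.3 had adjusted p of 0.0345 and 0.0377 with the block. Of 3 cell cycle genes, the Aurora kinase gene AUR1 rose by 0.54 (SE 0.17), lost without replicate 2 or replicate 3 (0.31, adjusted p 0.435), while AUR2 had 0.12 and BUB3.1 0.10. The clock gene GI had 0.08 (SE 0.18), and PRK, a Calvin cycle kinase among the shoot markers, had 0.10.

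Across all named genes, the pool that moved differed between rises and falls. Of the 1178 genes that rose in association, total RNA fell in 661, rose in 207 and did not pass in 310, and polysomal RNA rose in 576, fell in 186 and did not pass in 416. Of the 1699 that fell in association, polysomal RNA fell in 1120, rose in 153 and did not pass in 426, and total RNA rose in 749, fell in 299 and did not pass in 651. The largest class among the rises was thus a fall in total RNA with no call in polysomal RNA, with 393 genes. The largest among the falls was a fall in polysomal RNA with no call in total RNA, with 619. These calls share arrays with the association change, so an error in 1 pool moves both. Over all probe sets, polysomal RNA rose in 5142 (22.6%) and fell in 5744 (25.3%), and total RNA rose in 5069 (22.3%) and fell in 5455 (24%). With array medians subtracted, polysomal RNA rose in 7611 and fell in 5020 and total RNA rose in 8994 and fell in 4385, since the median over all probe sets was then 0.15 for the polysomal change, instead of 0.05, and 0.19 for the total change, instead of 0.05.

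The total change at 2 h, which shares no array with the comparison at 9 h, gives a classification free of that limit. Of the 1336 genes whose total RNA fell by 2 h, which are 10% of those named, 24.0% rose in association at 9 h and 8.38% fell, with a median of 0.20. Of the 1065 genes whose total RNA rose by 2 h (7.97%), 10.3% rose in association at 9 h and 23.6% fell, with a median of -0.09. Of the 10955 others 6.82% rose and 12.2% fell. No test was made of these shares.

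The association change at 2 h of hypoxia was set against that at 9 h, with no shared arrays. At 2 h, 1679 probe sets rose (7.38%) and 1733 fell (7.62%). Of the 2616 rises at 9 h, 2482 had a positive value at 2 h, and 2763 of the 2883 falls had a negative one, with a correlation across probe sets of 0.79, given as a description. Tested directly, the change at 9 h differed from that at 2 h in 1 of 22746 probe sets (0.0044%), that of AT5G62340. At an unadjusted p under 0.05, 784 were higher and 839 lower at 9 h, that gene included, and 48 passed the adjusted threshold with the block that pairs total with polysomal arrays. Leaving out replicate 1 of total RNA at 2 h hypoxia gave 23. The median SE of the difference was 0.25 over named genes.

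AT5G62340, the pectin methylesterase inhibitor gene, had polysomal levels of -1.62, -1.77 and -1.56 under hypoxia, against -1.41, -1.35 and -1.13 in air, and total levels of -1.66, -1.72 and -1.50 under hypoxia, against 0.68, 1.24 and 1.08 in air. Its means stood at the 29.2 percentile of the polysomal arrays under hypoxia and the 38.3 percentile in air, and at the 31.25 and 69.1 percentiles of the total arrays, so total RNA in air was the 1 group well above the dim end. The sizes of its differences are taken against levels that low. Its association change was 2.27 (SE 0.21) at 9 h and -0.03 at 2 h, a difference of 2.30 (SE 0.30, adjusted p 0.00111).

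The list medians at 2 h lay on the same side of 0 as at 9 h for the ribosomal proteins, glycolysis, root peroxidases and mitochondrion-encoded genes. Plastid-encoded genes had -0.21 at 9 h and -0.38 at 2 h, the first of which turned without replicate 3. Ribosomal protein genes had a median of -0.89 at 9 h and -0.62 at 2 h, where 67 of 114 fell (7.88% of all named genes did). Glycolytic genes had 0.62 at 9 h and 0.61 at 2 h, with 6 of 13 rising at 2 h (5.35% of all named genes rose). Root peroxidases had 1.21 at 9 h and 0.74 at 2 h, and mitochondrion-encoded genes -0.87 at 9 h and -0.41 at 2 h. No member of these lists passed limma's test of the difference between 9 h and 2 h. At an unadjusted p under 0.05, 9 ribosomal protein genes and 4 mitochondrion-encoded genes were lower at 9 h, and 2 glycolytic, 2 peroxidase and 3 plastid-encoded genes were higher.

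After 9 h of hypoxia and 1 h of recovery in air, set against the same 9 h air arrays, fewer genes were changed: 126 named genes rose (0.943%) and 37 fell (0.277%). This comparison shares its air arrays with the one above, so values are given side by side only. The ribosomal protein median was -0.89 under hypoxia and 0.01 after recovery, where none of the 114 passed. The glycolysis median was 0.62 under hypoxia and 0.09 after recovery, and again none passed. In both lists 0 genes had an unadjusted p under 0.05 in limma's test after recovery. Root peroxidases had 1.21 under hypoxia and 0.73 after recovery, with 4 of 12 rising after recovery, and AT4G26010 had 3.22 under hypoxia and 3.51 after recovery. The stable-total falls AT3G55170 and ATU2AF35A had 0.27 and -0.24 after recovery, and neither passed there. Core hypoxia genes had a median of -0.24 under hypoxia and -0.39 after recovery.

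**Figure D5:**
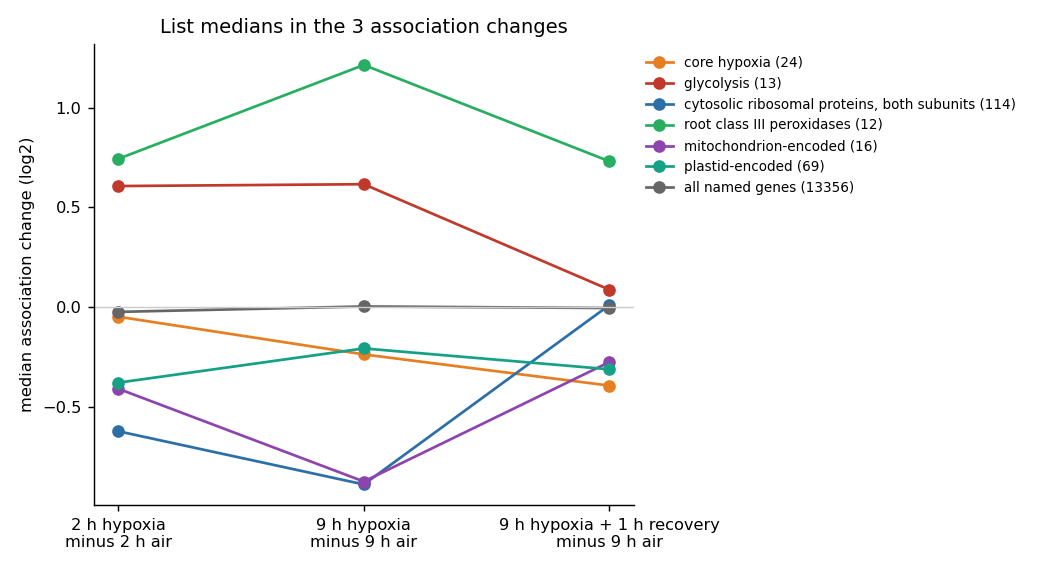
Median association change (y axis, log2) of 6 gene lists and of all named genes in the 3 comparisons: 2 h hypoxia minus 2 h air, 9 h hypoxia minus 9 h air, and 9 h hypoxia with 1 h recovery minus 9 h air; the last 2 share their air arrays. The ribosomal protein median is -0.62, -0.89 and 0.01, and the root peroxidase median is 0.74, 1.21 and 0.73.

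Calls also varied with signal level and with gene span. Probe sets were ranked by their level in total RNA of 9 h air, whose arrays also enter the association change. In the dimmest of 10 equal bins 1.10% rose and 0.747% fell, and in the brightest bin 22.2% rose and 27.3% fell, with medians of 0.01 and -0.06. Calls were thus few where the signal was low. Among 13217 nuclear genes with a known span, introns included and cut into 5 bins of equal number, the bin of the longest genes had a median of 0.09, with 14.19% rising and 6.77% falling. The bin of the shortest genes had a median of -0.01, with 3.67% rising and 9.27% falling. The next 2 bins above the shortest had the most falls, 17.6% and 17.0%, and 15.99% and 16.6% without the ribosomal protein genes. The Spearman correlation across genes was 0.13, where genes share the arrays and are not independent replicates.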

How the data were processed

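RNA of whole seedlings was hybridised to Affymetrix ATH1 arrays, 1 array for each of 3 replicates in 5 conditions and 2 RNA pools (total and immunopurified polysomal). The authors deposited log2 signals, for which the submitters' processing notes name RMA. Not given in the sources used here are its version and the arrays it was run on at once. Per the labels, 3 replicate experiments were independent. The number of arrays limits the precision, and signals of single probes were not used here.

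The files hold 22810 probe sets, of which 64 are controls. Each array's mean over the 22746 others was subtracted. Genes were named from the platform's probe table and the RefSeq gene table (TAIR10.1): 13513 probe sets had 1 gene, 503 had several and 8730 are unnamed here. The probe set with the highest mean stood for a gene, giving 13356 genes.

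limma 3.58.1 (R 4.3.3) was fitted to all 30 arrays with 1 mean per group (20 residual degrees of freedom). P-values were adjusted by Benjamini-Hochberg over all probe sets, with a threshold of 0.05, and SEs are those of the model. The fit was also run on simulated arrays with known shifts. Their errors were drawn independently for each array, so that run does not cover arrays that deviate together. The labels name no array batch.

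Named were the 12 largest rises and falls, and the 8 largest of each with stable total RNA, among genes that passed and whose replicate differences did not overlap, up to 4 passing members of each list and all members of lists with 5 or fewer. Gene lists came from general knowledge. Listed genes with no single-gene probe set named here were left out, so most lists are partial. Members and lists were chosen with earlier results of these data known.

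The total and the polysomal array of a condition and number deviated together from their group means in all 15 pairs (correlations of 0.133 to 0.589). They were taken as pairs in an alternative fit. At 9 h these correlations were 0.133 to 0.320 under hypoxia and 0.133 to 0.174 in air. Arrays of 9 h hypoxia and 9 h air with the same number gave 0.031 to 0.280 in total and 0.106 to 0.180 in polysomal RNA. The pairing is thus weakly marked at 9 h. Other alternatives were other centrings (array median, hybridisation controls, none, quantile, cyclic loess), a block of replicate number, a filter on dim probe sets, fewer groups in the fit, and leaving out arrays. Planned checks of protein length, leader and promoter composition were not run, since sequences were not used here, and gene span was used in their place.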

Additional observations from a re-analysis of the deposited data

Results flagged for a closer look

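The association change of AT5G62340, a pectin methylesterase inhibitor gene, was 2.27 at 9 h and -0.03 at 2 h, a difference of 2.3031 (SE 0.30, limma adjusted p 0.00111), and it was the only probe set of 22746 past the threshold in that test. The cause was not tested.

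The array carries 27 probe sets for Bacillus control transcripts that are outside every comparison. Their mean log2 signal on the total RNA arrays of 9 h hypoxia was 6.8917, above the 5.83 on total arrays of 9 h air. On polysomal arrays it was 5.12 under hypoxia and 5.27 in air, so that the association contrast of these controls was -1.21, beside -1.002 for the array means.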

How the results depend on the processing

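Of 92 named genes, none called in the main or alternative fit changed direction under array medians, hybridisation controls, quantile normalization or cyclic loess. The same held for either replicate block, the filter on the dimmest 40 percent (which left 85) and a fit to fewer groups. A change of sign in a gene called in neither fit was not counted here. Leaving out the centring changed most results, by its construction: 168 probe sets rose and 19798 fell in association, 28 were higher and 22063 lower in polysomal than in total RNA under hypoxia, 1895 and 14629 in air, 1031 rose and 20209 fell in polysomal RNA, and 10 rose and 7389 fell with stable total RNA. Called values that then turned negative were TUA6 -0.19, AT4G17260 -0.24, SDH1-1 -0.11, ATG3 -0.16, ETFBETA -0.58, AT5G07340 -0.22, AUR1 -0.46, SDH2-1 -0.47, AT1G72730 -0.30, HTB1 -0.46, EIF4A-2 -0.32, TUB1 -0.22 and TUB7 -0.39. Those not called were PSAE-1 -0.97, PRK -0.90, BUB3.1 -0.90, BZIP28 -0.63, BZIP60 -0.48, GI -0.92, CRT1b -0.60, LHCB4.3 -0.60, STZ -0.21 and AUR2 -0.88. List medians were then -0.0309 for fermentation, -0.39 for glycolysis and -0.54 for endoplasmic reticulum folding and the response to unfolded proteins. They were -0.84 for translation factors, -0.87 for branched-chain amino acid breakdown and autophagy, -0.64 for histones, -0.72 for tubulins and -0.12 for expansins and xyloglucan enzymes. The nuclear photosynthesis median was 0.0608 under cyclic loess.

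With the hybridisation controls, 381 probe sets rose and 611 fell in association, 1456 were higher and 2187 lower in polysomal than in total RNA under hypoxia, 1846 and 2000 in air, 1674 rose in polysomal and 1554 in total RNA, and 25 rose and 183 fell with stable total RNA. The 21 named genes that did not pass there were PDC2, AT5G42740, TUA6, TUB1, TUB5, TUB7, SDH1-1, SDH2-1, AT3G15640, ATG3, ATG8C, ETFBETA, AT4G17260, AT5G07340, HTB1, HTB11, AUR1, EIF4A-2, AT1G72730, AT1G19530 and rbcL. With array medians 8994 probe sets rose in total RNA. With stable total RNA defined by size alone, 466 genes rose.

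The difference between 9 h and 2 h was passed by 1 probe set, by 48 with the replicate block of condition and number, by 29 with the replicate block of number, by 7 without centring, by 5 under cyclic loess, by 2 with array medians and without dim probe sets, by 0 with the hybridisation controls and by 0 to 23 when arrays or replicates were left out. With the block of condition and number 3350 probe sets rose and 3420 fell in association, and it made 6 more named genes pass, all given above, and ended no call. Pool changes lie between its pairs and were not fitted with it.

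Leaving out arrays or replicates gave 1606 to 2515 rises and 1932 to 2857 falls in association, 3247 to 4200 higher and 3197 to 3889 lower in polysomal than in total RNA under hypoxia, 3585 to 4306 and 3170 to 3921 in air, 3928 to 4929 rises and 4821 to 5561 falls in polysomal RNA, 3832 to 4758 rises and 4391 to 5232 falls in total RNA, and 193 to 331 rises and 468 to 676 falls with stable total RNA. Dim probe sets gave few calls.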

Other observations

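Among groups of at least 10 genes that share the letters of their symbol, chosen by that rule after the data were seen, the glutathione transferases of the tau class (GSTU), which conjugate glutathione to reactive compounds, had a median association change of 0.54, with 6 of 11 rising and 2 falling. Of 20 beta-glucosidase genes (BGLU) 8 rose and none fell, with a median of 0.14. Of 47 UDP-glycosyltransferase genes (UGT) 10 rose and 1 fell, with a median of 0.16. Over all named genes 8.82% rose and 12.7% fell. Of 26 genes with the letters CYP 5 rose and none fell. Cytochrome P450 genes share these letters with cyclophilins such as CYP71, so the group is not 1 family. Of 22 TBL genes, which include acetyltransferases of wall polysaccharides, 6 rose and none fell.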
